A study of Mus musculus with 4 samples.

Results

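Translation initiation and elongation factors are the proteins that bring the ribosome to the start codon of an mRNA and carry it along the message. They were taken here by symbol, as every row of the deposited table that begins with Eif1 to Eif6 or with Eef1 or Eef2, leaving out the Eif2ak kinases and symbols that end in y, which gave 76 of 55335 rows. The assay was SMART-Seq2, in which whole transcripts of a small number of cells are copied to cDNA and amplified by PCR before sequencing. The 4 libraries came from EpCAM-positive, living epithelial cells sorted from the corpus of the stomach; the mice were C57BL/6 and 6 to 8 weeks old. All mice carried the Iqgap3-2A-tdTomato reporter, in which a red fluorescent protein is made together with the Iqgap3 product, so the groups share that allele and there was no reporter-free control. IQ3pos denotes cells high for the reporter and IQ3neg cells low or negative for it. IQ3pos_1909A and IQ3neg_1909B each came from a pool of 3 mice, and IQ3pos_1910A and IQ3neg_1910B each from a pool of 4, so each group has 2 libraries. Values are given for the 3-mouse library first and the 4-mouse library second, and the labels do not say whether the fractions came from the same mice.

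In outline, eIF2 carries the initiator tRNA to the small ribosomal subunit as a complex with GTP, and eIF2B recharges eIF2 with GTP after each round. eIF3 is a multi-subunit scaffold on the small subunit. eIF4E binds the cap of the mRNA, eIF4G bridges it to the ribosome, and eIF4A unwinds the leader. eEF1A then delivers each aminoacyl-tRNA, and eEF2 moves the ribosome by a codon. Zymogen- and hormone-secreting cells of the gastric gland, and the dividing cells of its isthmus, all depend on this machinery.

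The libraries held 90714929 to 418401262 reads in genes, so the counting error of reads was small except for members of a few reads. PCR copies are not independent molecules, so this depth does not give the error of sampling molecules. CPM, the reads of a gene per 1000000 reads in genes, are shares of a library. The 20 most abundant genes took 26.5% and 20.5% of the reads in the IQ3pos libraries but 64.7% and 58.2% in the IQ3neg libraries. Levels are therefore given as TMM-scaled CPM, in which a composition factor per library (1.26 and 1.35 for IQ3pos, 0.687 and 0.855 for IQ3neg) centres most genes. With deposited CPM the median log2 difference of all genes, IQ3pos minus IQ3neg, was 0.68, and with TMM-scaled CPM 0.04. Marker sums set the fractions apart. Enteroendocrine markers summed to 301 and 151 TMM-scaled CPM in IQ3pos and 23890 and 12694 in IQ3neg, with 9 of 10 lower in both IQ3pos libraries and Gast the only one at 0 in any library. Chief cell markers summed to 40432 and 14458 against 605265 and 472748, with 7 of 7 lower and none at 0. Markers of cycling cells summed to 785 and 1752 against 125 and 207, with 5 of 5 higher and none at 0. Parietal markers summed to 3408 and 2320 against 668 and 663, with 4 of 6 higher and Slc26a7 at 0 in 1 library. Surface pit markers summed to 7570 and 7220 against 1477 and 1595, with 4 of 4 higher and none at 0. Epithelial markers summed to between 1765 and 3263, immune markers to between 44.2 and 503 (Cd3e, Cd79a and Itgam were each at 0 in some library), and stromal and vessel markers to between 1.002 and 20.4. The part of these cell types in the differences below was not tested, and in such bulk samples fewer cells of a type and less RNA per cell cannot be told apart.

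Most of the tested translation factors stood somewhat higher in IQ3pos, and Eif4e3 and Eif5a2 stood far lower there. Both reached the mean of 1 CPM needed for the test only through IQ3neg, so their large difference is tied to how they were selected. Of the 76 members, 62 had a mean of at least 1 CPM and were tested. Of these, 31 had both IQ3pos libraries above both IQ3neg libraries, where 24.7% of all 13019 tested genes did, and 6 had both below, where 23.0% of all genes did. The members' shares were 50% and 9.68%. Differences above 0 were found for 52 members and below 0 for 10, where 51.2% and 48.8% of all genes had them. The median log2 difference of the tested members was 0.47, against 0.04 for all tested genes. Summed over all 76, the members made up 0.844% and 1.14% of the deposited reads in IQ3pos and 0.358% and 0.465% in IQ3neg. In TMM-scaled CPM the sums were 6695 and 8422 against 5211 and 5433.

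No single member passed the test over all genes. With limma on log2(TMM-scaled CPM + 1) and Benjamini-Hochberg adjustment at 0.05, 0 members were called higher and 0 lower, where 0.0461% of all genes were called higher and 0.184% lower. The smallest adjusted p among members was 0.199, for Eif4a1. At an unadjusted p under 0.05, 9 members were higher (7.63% of all genes) and 1 was lower (8.32% of all genes). The edgeR quasi-likelihood test on recovered reads also called 0 of 70 in either direction, where it called 0.0535% of all genes higher and 0.214% lower. The DESeq2 Wald test called 0 of 71 higher, where 5.13% of all genes were called, and 3 lower (Eef1akmt3, Eif4e3 and Eif5a2), where 9.95% were called. limma also called 0 members in either direction under each of the settings that follow. Of all genes (higher and lower) it called 0.123% and 0.253% with DESeq2 size factors, and 0.0154% and 0.0692% without the 20 most abundant genes. It called 0.727% and 0.886% at a mean of 5 CPM or more, and 0.269% and 0.492% with a pseudocount of 5. With deposited CPM it called 0% of all genes in either direction. With 2 libraries a group, the smallest two-sided p of an exact permutation test is 0.333.

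The count of members that separate the groups depended on the scaling, while their median above all genes varied less. Of the members that did not overlap, 83.8% (31 against 6) were the higher ones, and of all genes 51.7%. With deposited CPM the members' counts were 52 against 2 (96.3%), where 40.9% of all genes were higher and 14.2% lower. With DESeq2 size factors they were 31 against 6, where 24.6% of all genes were higher and 22.8% lower. Without the 20 most abundant genes they were 20 against 11 (64.5%), where 19.3% of all genes were higher and 26.9% lower. Among the members with a mean of 5 CPM or more they were 29 against 4, where 29.9% of genes were higher and 19.3% lower. Relative to the median of all genes, the members' median was 0.43, or 0.52 with deposited CPM and 0.43 without the 20 most abundant genes. At a mean of 5 CPM or more it was lower, 0.34, and the median of all genes there was 0.14.

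**Figure D1:**
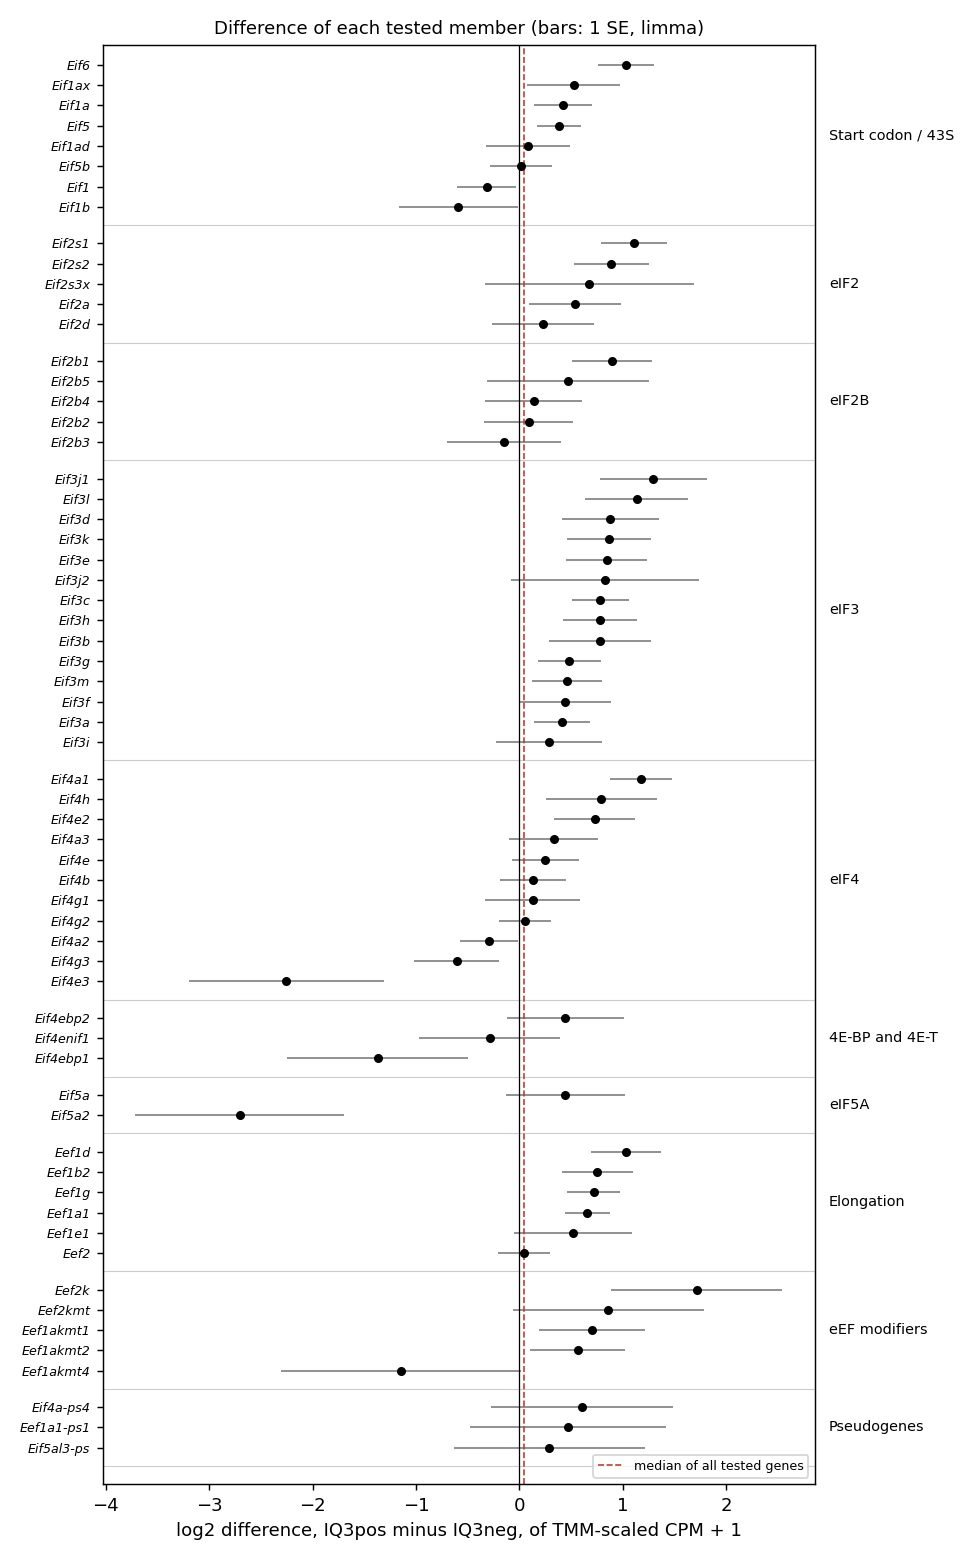
Log2 difference (IQ3pos minus IQ3neg, log2 of TMM-scaled CPM + 1) of each of the 62 tested members, grouped by role, with bars of 1 SE from limma; the dashed line is the median of all tested genes (0.04). The 14 eIF3 members lie to its right, while Eif5a2 and Eif4e3 lie farthest to its left.

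Of the subunits of eIF2, alpha and beta stood higher in both IQ3pos libraries, and gamma overlapped. Eif2s1, the alpha subunit whose phosphorylation slows initiation, stood at 202 and 316 TMM-scaled CPM in IQ3pos and at 114 and 120 in IQ3neg. The lowest IQ3pos library lay well above the highest IQ3neg library, and the log2 difference was 1.11 (SE 0.32, limma adjusted p = 0.223). Eif2s2, the beta subunit, stood at 197 and 331 against 118 and 160, which differ by 0.89 on the log2 scale (SE 0.36, limma adjusted p = 0.312). Eif2a and Eif2d, factors that can deliver initiator tRNA without eIF2, differed by 0.54 and 0.23, and the Eif2d libraries overlapped.

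The gamma subunit, which binds GTP and the tRNA, is encoded on both sex chromosomes in mice. Eif2s3x, the X-linked gene, stood at 3.95 and 17.4 TMM-scaled CPM in IQ3pos and at 3.90 and 6.29 in IQ3neg. Its levels overlapped between groups, and the 3-mouse libraries were nearly equal. The Y-linked copy Eif2s3y, which is not a member, had 2212 and 1668 reads in IQ3pos_1909A and IQ3neg_1909B, or 19.4 and 21.1 TMM-scaled CPM. It had 0 reads in IQ3pos_1910A and IQ3neg_1910B, which allows up to 0.00796 and 0.00838 TMM-scaled CPM at 3 reads. The 3-mouse libraries thus held Y-linked transcript and the 4-mouse libraries held none that was detected. The labels used here give no sex. Summed over both copies, the gamma subunit stood at 23.3 and 17.4 in IQ3pos and 25.0 and 6.29 in IQ3neg. The difference of Eif2s3x between groups (0.68, SE 1.006) cannot be told apart from its spread between pools, and the sum separated the fractions among the 4-mouse libraries and not among the 3-mouse libraries. Of the 50-base words (all stretches of that length) in Eif2s3x transcripts, 34.6% also occur in the pseudogene Gm2223, which itself stood at no more than 0.260 TMM-scaled CPM.

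Of the eIF2B subunits, 1 of 5 had both IQ3pos libraries above both IQ3neg libraries, a share near the 24.7% of all genes. Eif2b1, the alpha subunit that holds the eIF2B complex together, stood at 72.9 and 116 TMM-scaled CPM in IQ3pos and at 48.4 and 49.9 in IQ3neg (log2 difference 0.89, SE 0.39, limma adjusted p = 0.332). The other 4 subunits overlapped between the groups, with log2 differences from −0.15 (Eif2b3) to 0.47 (Eif2b5). Eif2b5, the catalytic subunit, varied more with the pool than with the fraction, at 43.1 and 17.5 in IQ3pos and 35.6 and 10.6 in IQ3neg. The median of the 5 subunits was 0.14, or 0.0962 relative to all genes. Relative to all genes it was 0.47 without IQ3neg_1909B, −0.18 without IQ3pos_1909A, −0.14 without IQ3neg_1910B and 0.18 without IQ3pos_1910A, so it has no stable sign.

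Among the factors that choose the start codon and join the subunits, Eif6 differed most. Eif6 keeps the large ribosomal subunit from joining too early and also serves in its maturation. It stood at 230 and 263 TMM-scaled CPM in IQ3pos and at 116 and 124 in IQ3neg, with no overlap (log2 difference 1.03, SE 0.27, limma adjusted p = 0.205). Eif5, which triggers GTP hydrolysis on eIF2, had the most reads of this group, at 609 and 625 against 466 and 481, and differed by 0.38 (SE 0.22, limma adjusted p = 0.447). Per kilobase of merged exons, Eif5 and Eif6 were alike in IQ3pos, at means of 90.4 and 91.3 TMM-scaled CPM per kilobase, while in IQ3neg Eif5 stood at 69.4 and Eif6 at 44.4.

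The start codon gatekeeper eIF1 was lower in IQ3pos relative to other genes, with a direction that depends on the scaling. Eif1 stood at 128 and 150 TMM-scaled CPM in IQ3pos and at 160 and 186 in IQ3neg, which differ by −0.32 on the log2 scale (SE 0.28, limma adjusted p = 0.604). Its paralog Eif1b stood at 16.1 and 12.8 against 26.4 and 18.6, which differ by −0.59 on the log2 scale (SE 0.58, limma adjusted p = 0.629). Both were below in both IQ3pos libraries with TMM scaling. In deposited CPM Eif1 was above in both, at 161 and 202 against 110 and 159, and Eif1b overlapped, at 20.3 and 17.3 against 18.1 and 15.9. Relative to the median of all genes, deposited CPM gave −0.23 for Eif1 and −0.54 for Eif1b. The eIF1A pair, which works beside eIF1 on the small subunit, was on the higher side, at 0.42 for Eif1a (148 and 173 against 117 and 121) and 0.52 for Eif1ax (65.4 and 123 against 50.7 and 76.1), and Eif1ax overlapped. Relative to all genes Eif1ax was 0.48, but 0.0336 without IQ3pos_1910A, 0.22 without IQ3neg_1909B and 0.83 without IQ3pos_1909A. Eif5b, the GTPase of subunit joining, stood at 103 and 114 against 116 and 99.6 and overlapped.

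The eIF3 scaffold was the most uniform group. All 14 rows had a positive log2 difference, from 0.28 (Eif3i) to 1.29 (Eif3j1), and 13 had both IQ3pos libraries above both IQ3neg libraries. Of all tested genes, 51.2% had a positive difference and 24.7% had both IQ3pos libraries above. The median was 0.78, or 0.74 above that of all genes, and it was 0.76 within the 3-mouse libraries and 0.79 within the 4-mouse libraries. With deposited CPM all 14 separated, where 40.9% of all genes were higher without overlap. Without the 20 most abundant genes 7 did, where 19.3% of all genes did, with all 14 differences still above 0. Leaving out IQ3neg_1909B gave the lowest median of those tried, 0.53 above all genes. Eif3j2 passed the filter of a mean of 1 CPM only through IQ3pos (deposited CPM 3.48 and 1.14, against 0.530 and 0.208 in IQ3neg). Without the j subunits, Eif3j1 and Eif3j2, all 12 rows had a positive difference and 11 separated, with a median of 0.78. Of these, Eif3f separated by little, at 46.5 against 46.4 TMM-scaled CPM in the nearest libraries.

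Eif3c, of the octamer core, had the most reads of the eIF3 subunits, at 239 and 296 TMM-scaled CPM in IQ3pos and 143 and 166 in IQ3neg (log2 difference 0.78, SE 0.28, limma adjusted p = 0.267). Eif3a, the largest scaffold subunit, differed less, at 174 and 198 against 140 and 138 (0.41, SE 0.27). Eif3l, which pairs with Eif3k at the edge of the complex, stood at 115 and 162 against 39.4 and 95.7. Its difference was 1.13 (SE 0.50), with 1.52 among the 3-mouse libraries and 0.75 among the 4-mouse libraries. Eif3d, which can bind caps itself, stood at 33.7 and 41.0 against 19.97 and 19.6, which differ by 0.88 on the log2 scale (SE 0.47). Gm17638, a gene annotated as antisense, shares 37.2% of the Eif3d words and stood at 5.50 and 2.76 in IQ3pos and at 0 and 0.00279 in IQ3neg. Whether the counting used strand is not given, so reads of the pair cannot be told apart.

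The loosely bound j subunit has a pair of paralogs in the table. Eif3j1 stood at 49.4 and 38.4 TMM-scaled CPM against 22.4 and 13.1 (log2 difference 1.29, SE 0.52, limma adjusted p = 0.306), and Eif3j2 at 2.76 and 0.846 against 0.772 and 0.243. Since 91.8% of the Eif3j2 words also occur in other transcripts, mainly those of Eif3j1, the split of reads between them is uncertain. Eif3i was the subunit that overlapped, at 37.7 and 89.4 against 52.3 and 43.5.

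**Figure D2:**
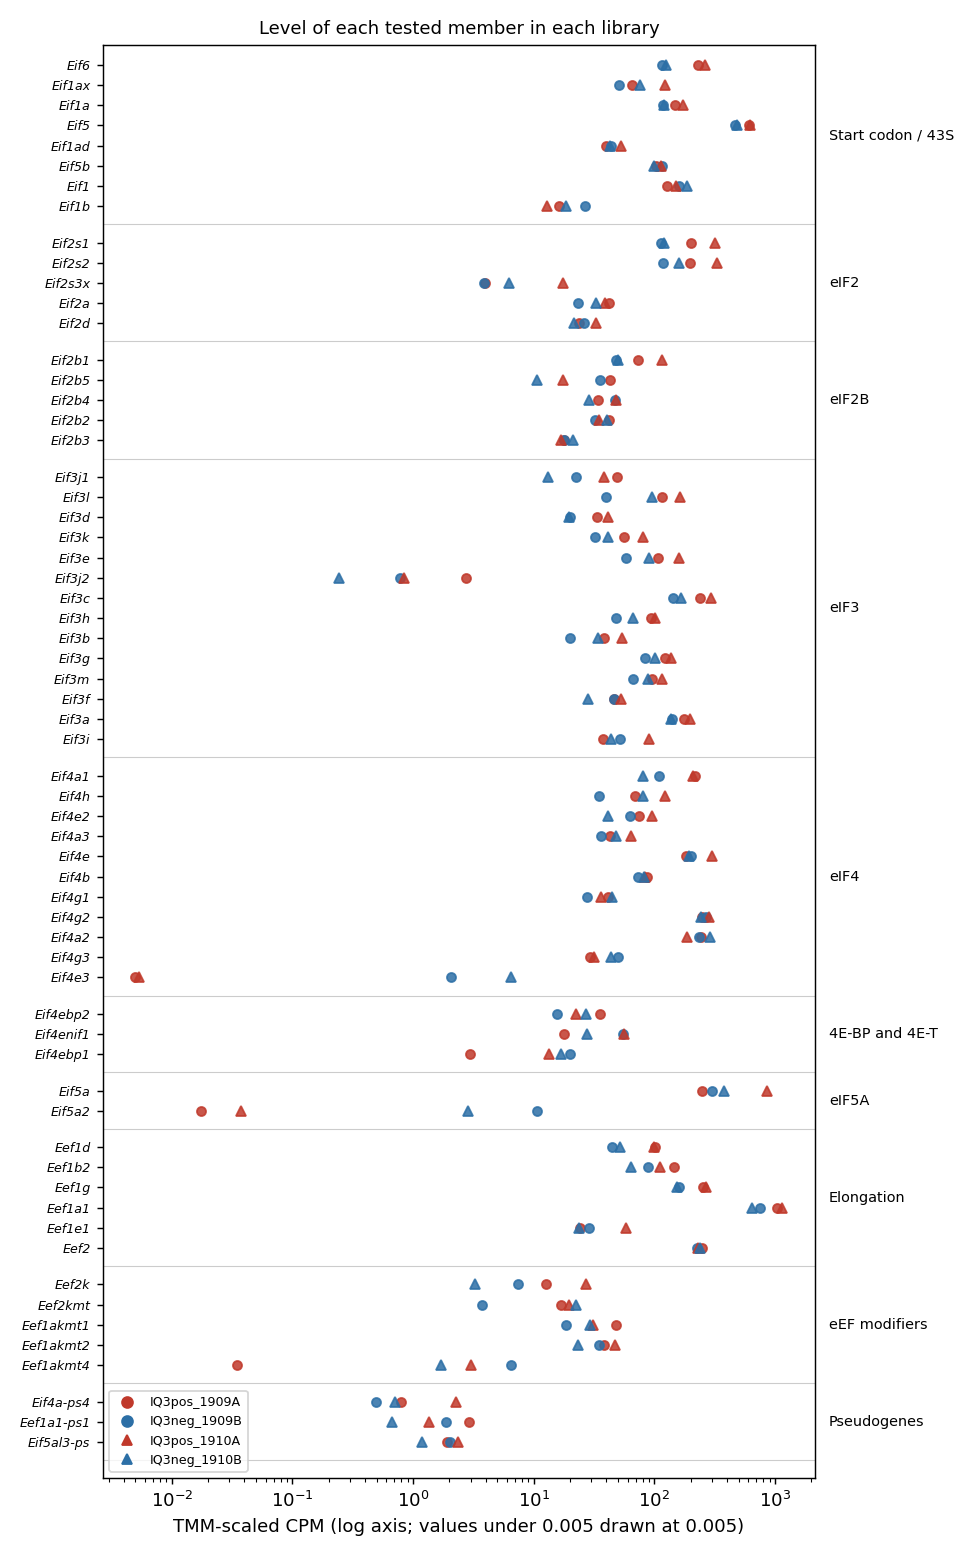
TMM-scaled CPM (log axis) of each of the 62 tested members in the 4 libraries, red for IQ3pos and blue for IQ3neg, circles for the 3-mouse and triangles for the 4-mouse libraries. Within eIF3, red symbols lie right of blue ones for 13 of 14 rows, while Eif4e3 and Eif5a2 show red symbols far to the left.

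Among the cap-binding factors, the helicase paralogs Eif4a1 and Eif4a2 differed from each other. Eif4a1 stood at 218 and 209 TMM-scaled CPM in IQ3pos and at 109 and 80.9 in IQ3neg, without overlap (log2 difference 1.18, SE 0.30, limma adjusted p = 0.199). Eif4a2 stood at 242 and 187 against 234 and 291, with overlap (−0.29, SE 0.28, limma adjusted p = 0.627). A ratio within a library is nearly free of the scaling factor. With 1 added to each level, the log2 ratio of Eif4a1 to Eif4a2 was −0.15 and 0.16 in IQ3pos and −1.10 and −1.84 in IQ3neg, so that the paralogs had similar levels in IQ3pos and Eif4a2 had more in IQ3neg. Per kilobase of merged exons, Eif4a1 stood at means of 49.3 and 21.9 TMM-scaled CPM per kilobase in IQ3pos and IQ3neg, and Eif4a2 at 40.2 and 49.2. The 4 ratios did not overlap between fractions, but neither did most of the other paralog ratios computed, so this is not particular to Eif4a1 and Eif4a2. Eif4e over Eif4e2 and Eif4g1 over Eif4g3 were among those without overlap, while Eif1 over Eif1b overlapped. The ratio of Eif4a1 to Eif4a2 was chosen for display after its values were seen. Of the Eif4a1 words 28.4% are shared with other genes, chiefly the pseudogene Eif4a-ps4 (at most 2.27 TMM-scaled CPM). Eif4a3, a related helicase of the exon junction complex, overlapped (0.33, SE 0.43).

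With TMM scaling, none of the eIF4G scaffolds was above in both IQ3pos libraries. Eif4g2, a cap-independent relative, had the most reads of the 3, at 248 and 284 TMM-scaled CPM against 269 and 243. Eif4g1, the main scaffold, stood at 41.1 and 35.8 against 27.6 and 44.4, and both genes overlapped between groups. Eif4g3 stood at 29.5 and 31.5 in IQ3pos and at 49.9 and 43.9 in IQ3neg, below in both (log2 difference −0.60, SE 0.41, limma adjusted p = 0.538). In deposited CPM Eif4g1 (51.8 and 48.3 against 18.9 and 38.0) and Eif4g2 (312 and 384 against 184 and 207) were above in both IQ3pos libraries. There 40.9% of all genes were above in both, and Eif4g3 overlapped, at 37.1 and 42.5 against 34.3 and 37.6. Eif4b and Eif4h, which assist eIF4A, differed by 0.13 (SE 0.32) and 0.79 (SE 0.53). The median of the 11 tested cap-binding factors was 0.13, with 3 above and 2 below in both IQ3pos libraries. These counts lie near the 24.7% and 23.0% of all genes. Relative to all genes that median was 0.0911, and from 0.0072 to 0.21 with a library left out.

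The eIF4E genes differed among themselves. Eif4e, the canonical cap-binding protein, stood at 183 and 299 TMM-scaled CPM against 199 and 193 and overlapped (0.25, SE 0.32). Without IQ3pos_1910A its difference relative to all genes was −0.14. Eif4e2, which takes part in repression and in translation at low oxygen, stood at 75.2 and 95.2 against 62.6 and 41.2, without overlap (0.73, SE 0.39, limma adjusted p = 0.421). Eif4e3, on chromosome 6 at 99625135 to 99666771 (GRCm38), had 0 and 2 reads in IQ3pos and 162 and 2329 reads in IQ3neg, or 2.05 and 6.51 TMM-scaled CPM in the latter. The log2 difference was −2.25 (SE 0.94, limma adjusted p = 0.319), on a scale that understates the change of low genes. As a ratio of pooled, scaled reads IQ3neg exceeded IQ3pos 1401-fold, with a 95% exact counting interval of 387 to 11575. That interval covers counting error only, and PCR copies are not independent molecules.

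The repressors that sequester eIF4E were split. Eif4ebp1 stood at 2.94 and 13.5 TMM-scaled CPM in IQ3pos and at 20.1 and 17.0 in IQ3neg, below in both (−1.37, SE 0.87, limma adjusted p = 0.507). The difference was large among the 3-mouse libraries (−2.42) and small among the 4-mouse libraries (−0.31). Eif4ebp2 stood at 35.7 and 22.4 against 15.5 and 27.2 and overlapped (0.44, SE 0.57). Eif4ebp3 had 1 read in all. Eif4enif1, which carries eIF4E to the nucleus and to P-bodies, stood at 17.9 and 55.6 against 54.5 and 27.9. Its differences had opposite signs in the 3-mouse (−1.55) and 4-mouse (0.97) libraries.

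**Figure D3:**
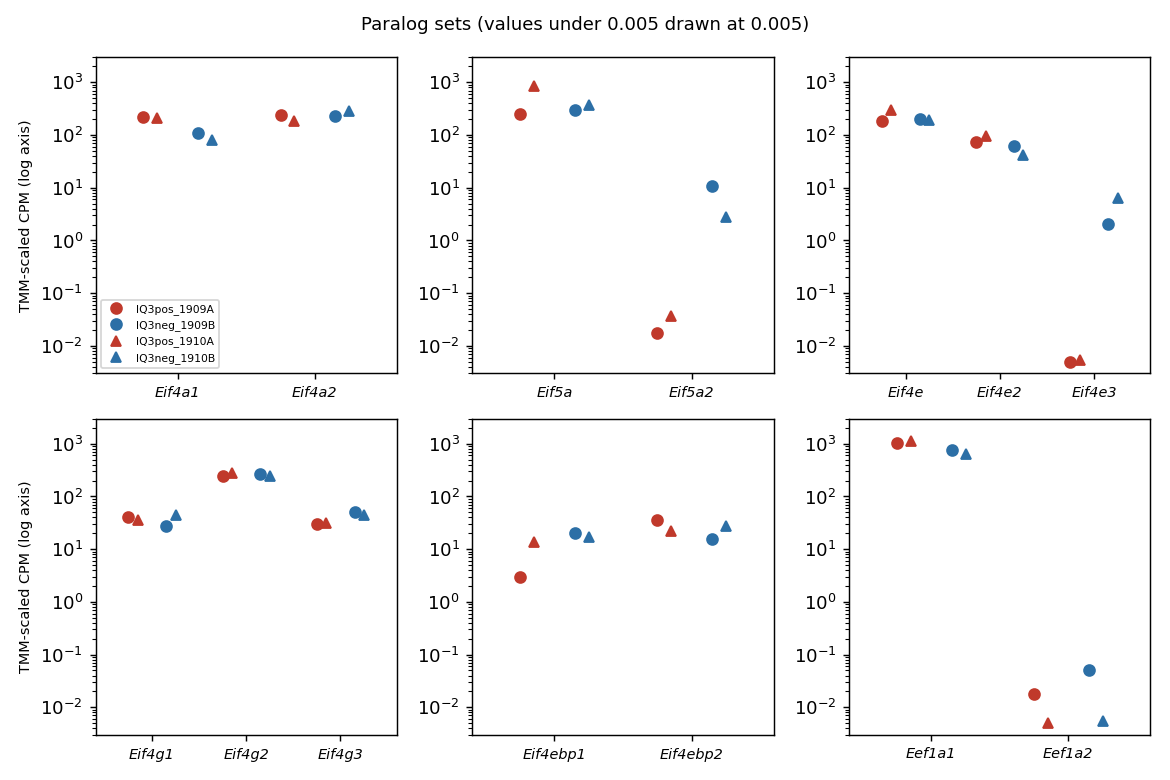
TMM-scaled CPM (log axis) of 6 paralog sets in the 4 libraries, red for IQ3pos and blue for IQ3neg, circles for the 3-mouse and triangles for the 4-mouse libraries. Eif4a1 separates by fraction where Eif4a2 does not, and Eif5a2 and Eif4e3 lie far lower in IQ3pos.

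eIF5A helps the ribosome past difficult peptide bonds and is the protein that carries hypusine, a modified lysine. Eif5a was second to Eef1a1 among the members per kilobase of merged exons, at a mean of 231 against 142.6 TMM-scaled CPM per kilobase in IQ3pos and IQ3neg. In TMM-scaled CPM it stood at 246 and 853 in IQ3pos and at 303 and 375 in IQ3neg. IQ3pos_1910A stood far above the other 3 libraries, and IQ3pos_1909A was the lowest. The log2 difference was 0.44 (SE 0.58), and without IQ3pos_1910A it was −0.49 relative to all genes. Markers of cycling cells were also higher in IQ3pos_1910A (1752) than in IQ3pos_1909A (785), and their part in this was not tested.

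Its paralog Eif5a2, on chromosome 3 at 28781276 to 28798846, had 2 and 14 reads in IQ3pos and 838 and 1020 reads in IQ3neg. In TMM-scaled CPM these were 0.0175 and 0.0371 against 10.6 and 2.85. The log2 difference was −2.70 (SE 1.01, limma adjusted p = 0.285), and the ratio of pooled, scaled reads was 131 (95% exact counting interval 80.2 to 229). That interval treats reads as independent and does not cover the spread between pools, which was wide in IQ3neg (10.6 and 2.85). Eif5a2 and Eif4e3, which passed the filter only through IQ3neg, were the members below in both IQ3pos libraries with deposited CPM as well. Eef1akmt3, which methylates eEF1A on lysine, showed the same order but missed the filter, with 0 and 1 reads in IQ3pos and 140 and 576 in IQ3neg (1.77 and 1.61 TMM-scaled CPM). Enteroendocrine and chief cell markers were also far lower in IQ3pos (sums above), with tuft markers at 440 and 96.2 against 538 and 1300 (4 of 5 lower, none at 0), and their part in these 3 genes was not tested.

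Of 6 tested elongation factors, 4 stood above in both IQ3pos libraries, where 24.7% of all genes did, and Eef2 and Eef1e1 overlapped. Eef1a1, on chromosome 9 at 78478449 to 78489151, was the most abundant member per kilobase, at a mean of 438 TMM-scaled CPM per kilobase in IQ3pos and 279 in IQ3neg. It stood at 1035 and 1151 TMM-scaled CPM in IQ3pos and at 751 and 639 in IQ3neg, without overlap (log2 difference 0.66, SE 0.22, limma adjusted p = 0.256). It held between 11.8% and 15.5% of the members' summed level in each library. Its paralog Eef1a2, the form of muscle and neurons, had 1 to 4 reads per library. Of the Eef1a1 words 40.4% recur in other genes, most of them in Gm13456 and other copies, so that some of its reads may have been assigned elsewhere.

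The exchange factor subunits that recharge eEF1A followed Eef1a1. Eef1b2 stood at 146 and 111 TMM-scaled CPM against 88.1 and 64.4 (0.75, SE 0.35). Eef1d stood at 101 and 98.6 against 44.5 and 52.2 (1.03, SE 0.34, limma adjusted p = 0.250), and Eef1g at 251 and 266 against 159 and 155 (0.72, SE 0.25, limma adjusted p = 0.269). None of these 3 overlapped between the groups. Eef1e1, a scaffold protein of the tRNA synthetase complex, stood at 24.3 and 58.1 against 28.8 and 23.5 (0.51, SE 0.57). Eef1g shares 44.2% of its words with other genes, most of them with the pseudogene Gm4366. Eef2, the translocase, was nearly level, at 250 and 231 against 225 and 241 TMM-scaled CPM, with a difference of 0.04 on the log2 scale (SE 0.25, limma adjusted p = 0.947). Relative to the median of all genes its difference was 0.0017.

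Eef2k, the kinase that stops eEF2, had the largest positive difference of all members. It stood at 12.6 and 27.0 TMM-scaled CPM in IQ3pos and at 7.40 and 3.23 in IQ3neg, which differ by 1.71 on the log2 scale (SE 0.83, limma adjusted p = 0.373). The difference was 0.70 among the 3-mouse libraries and 2.73 among the 4-mouse libraries. Of the methyltransferases that modify eEF1A, Eef1akmt1 and Eef1akmt2 were above in both IQ3pos libraries (0.70, SE 0.51, and 0.56, SE 0.46), where 24.7% of all genes were. Each rested mainly on a single pair of libraries. Eef1akmt1 differed by 1.33 among the 3-mouse and 0.0834 among the 4-mouse libraries, and Eef1akmt2 by 0.13 and 1.001. Eef1akmt4 had 4 reads in IQ3pos_1909A and 1131 in IQ3pos_1910A, and its difference of −1.15 (SE 1.16) turned on both 3-mouse libraries: relative to all genes it was −1.19, or −0.29 without IQ3pos_1909A and −0.46 without IQ3neg_1909B. Eef2kmt, which methylates eEF2, stood at 16.8 and 19.5 against 3.72 and 22.5 and overlapped.

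Many translation factor mRNAs belong to the 5′ terminal oligopyrimidine (TOP) class, whose first bases are a run of C and T, that is, pyrimidines, through which mTORC1 controls their translation. A list of 9 members of that class (Eef1a1, Eef1b2, Eef1d, Eef1g, Eef2, Eif3e, Eif3f, Eif3h and Eif4b) had 8 above in both IQ3pos libraries, and Eef2 was the one that overlapped. Of all tested genes 24.7% were above in both. Eif3f and Eif4b separated by little (46.5 against 46.4, and 84.3 against 82.6, TMM-scaled CPM in the nearest libraries). Their median log2 difference was 0.72, against 0.46 for the 53 tested members not on the list. Relative to all genes the list's median was 0.67, and 0.42 without IQ3neg_1910B. Eif3e stood at 106 and 161 TMM-scaled CPM against 58.1 and 90.1, Eif3h at 93.2 and 102 against 47.8 and 66.5, Eif3f at 46.5 and 52.6 against 46.4 and 28.0, and Eif4b at 86.6 and 84.3 against 73.3 and 82.6. The 3-mouse libraries were level for Eif3f, and without IQ3neg_1910B its difference was −0.03 relative to all genes. RNA levels were measured here, and translation was not.

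For comparison with the feature that defines the class, the first 30 bases after the start that RefSeq annotates (GRCm38.p6) are given for the 5 list members that the promoter table holds. The longest pyrimidine run is in capitals.
Eef1a1 (chr9:78481695-78481724, minus strand): TTCCCgagggtgggggagaacggtatataa
Eef1b2 (chr1:63176831-63176860, plus strand): gccggaagtagccgaggCCTTgcgtccgag
Eef2 (chr10:81176631-81176660, plus strand): gttgacgtcagcggTCTCTTCCgccgcagc
Eif3f (chr7:108934415-108934444, plus strand): CTCTCTTTCTCggcaagatggcttctccgg
Eif4b (chr15:102073773-102073802, plus strand): cgccgcgccaCCCCCTCgcgctgctttacg
The Eif3f run begins at base 1 and is 11 bases long, that of Eef2 begins at base 15 and is 8 long, and that of Eif4b begins at base 11 and is 7 long. The Eef1a1 run begins at base 1 with T and is 5 long, and that of Eef1b2 begins at base 18 and is 4 long. Only the Eif3f window thus opens with a run led by C, and the other windows do not show the feature at the annotated start. A run of at least 6 pyrimidines that begins with C was searched on the transcript strand in the 50 bases after each start. It was found in 3 of these 5 promoters, in 21 of 60 promoters (35%) of the 46 tested members that matched, and in 33.3% of all 32851 promoters. Annotated starts need not be the starts used in these cells, and the runs are a description of the letters only.

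The pairs of libraries from the 3-mouse and the 4-mouse pools were compared next, as IQ3pos minus IQ3neg among libraries of the same number. Of the 62 tested members, 37 were higher in IQ3pos within both pairs, where 34.2% of all genes were, and 6 were lower within both, where 29.9% of all genes were. The median log2 difference of the members was 0.35 within the 3-mouse libraries and 0.62 within the 4-mouse libraries, against 0.03 and 0.03 for all tested genes. Across the 62 members the differences of the 2 pairs had a Pearson r of 0.45, given as a description, since members are not replicates, and it was 0.38 across all 13019 genes. Eif4enif1, Eef1akmt4, Eif5a and Eef2kmt were among the members with opposite signs in the pairs.

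**Figure D4:**
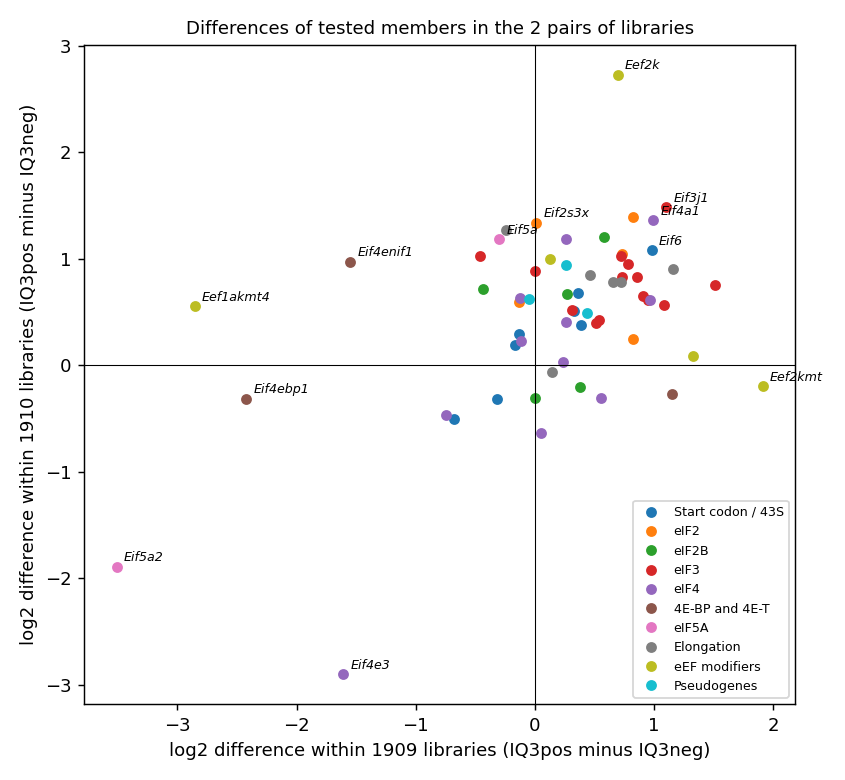
Log2 difference (IQ3pos minus IQ3neg) of each tested member between the 3-mouse libraries (x axis) and between the 4-mouse libraries (y axis), coloured by role. Most points lie in the upper right, 37 of 62, and Eif5a2 and Eif4e3 lie farthest to the lower left.

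None of the tested genes on the lists of other translation genes passed the threshold over all genes. Their counts above and below in both IQ3pos libraries stand beside shares of 24.7% and 23.0% of all genes, and several lists lie near those shares. Of 11 poly(A)-binding and scanning genes, 4 were above and 2 below in both IQ3pos libraries (median 0.54). Pabpc1, the poly(A)-binding protein that contacts eIF4G, stood at 175 and 187 TMM-scaled CPM against 107 and 99.8, and Paip2b, an inhibitor of it, at 11.8 and 12.3 against 50.7 and 20.5. Mcts2 had the largest positive difference of that list (1.75) and overlapped. Of 12 genes of the mTORC1 and S6 kinase axis, 4 were above and 2 below (median 0.36). Rptor, the scaffold of mTORC1, stood at 6.41 and 6.67 against 1.54 and 1.11, and Rps6kb2, an S6 kinase, at 0.0612 and 1.21 against 13.1 and 3.99. Of 5 tested termination and recycling genes, Etf1, the release factor, was above (126 and 125 against 38.3 and 62.3, log2 difference 1.34), and Gspt2, a release factor GTPase, had 0 reads in both IQ3pos libraries and stood at 4.66 and 1.46 in IQ3neg.

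Genes that act on eIF2 and genes of the stress response come next, beside the same shares of all genes (24.7% above and 23.0% below). Of 10 initiation control kinases and phosphatases, 9 overlapped, 1 was above (Gcn1, 1.11) and 0 below in both IQ3pos libraries, and Impact had the most negative difference (−1.79). Among 7 tested genes of the ATF4 response, which is switched on when eIF2 is phosphorylated, 2 were above and 4 below. Psat1, of serine synthesis, stood at 35.0 and 36.4 TMM-scaled CPM against 10.01 and 4.25, while Chac1, of glutathione breakdown, stood at 0.0350 and 0.0239 against 4.23 and 5.76. Of 8 hypusine and diphthamide enzymes, which modify eIF5A and eEF2, 1 was above (Dph5, 0.90) and 2 below. Dhps, the first hypusine enzyme, stood at 8.89 and 10.7 against 36.2 and 11.7, and Dohh, the second, had the most negative difference (−1.16) and overlapped. Of 9 mitochondrial factors, 2 were above and 1 below. Gfm1 had the largest positive difference (2.74) with IQ3neg_1909B at 0.0759 and the other 3 libraries between 21.2 and 51.6, and Mtrf1l the most negative (−1.77), with overlap.

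The 14 untested members were low in all libraries. They include Eef1a2, Eif4ebp3, Eif4e1b, Eef1akmt3 and Eef1aknmt, 8 pseudogene rows, and Eif2c5, which the symbol rule takes in although the name belongs to an Argonaute-type series. Among these, Eef1akmt3 in IQ3neg had the highest levels. Of the tested members 3 were pseudogene rows (Eif4a-ps4, Eef1a1-ps1 and Eif5al3-ps), with log2 differences of 0.60, 0.47 and 0.29 and levels of at most 2.89 TMM-scaled CPM. Leaving pseudogenes and Eif2c5 out, 59 tested members had a median of 0.47, with 30 above and 6 below, where 24.7% and 23.0% of all genes were. In 11 of the tested members over 20% of the 50-base words in their transcripts recur in another gene, so reads could have been split between copies.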

How the data were processed

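The deposited table gives CPM per gene symbol and library, made by the authors. The submitters' processing notes name GRCm38, the aligner STAR (2.7.1a), the Subread (2.0.0) counter featureCounts, and edgeR. Which annotation, strand setting and multi-mapping rule were used is not stated there. Every CPM column sums to 1000000. All values above 0 (100%) lay within 0.05 of a whole number of reads, so reads were recovered.

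Groups were compared two-sided with limma-trend (R 4.3.3, package version 3.58.1) on log2(TMM-scaled CPM + 1), with TMM factors from edgeR 4.0.16 on the recovered reads, for 13019 genes averaging 1 CPM or more, adjusted by Benjamini-Hochberg over all of them. There were 2 residual and 3.9 prior degrees of freedom, and the script was tested on simulated data. Since each library is a pool of mice, p-values reflect only how far these pools differ. TMM was used because the 20 most abundant genes take unequal shares of the fractions, and deposited CPM is an alternative. Counting intervals cover counting error only. Symbols were matched to GENCODE vM21 (74 of 76 members), from which lengths and coordinates come, and promoters to RefSeq. DESeq2 1.42.0 was an alternative. Members, role groups and lists were chosen with earlier results of these data known. Named members are the most abundant and the most different of each role group in each direction, paralog sets and the TOP list, and from each list of other genes the most different in each direction. Others named were chosen after their values were seen.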

Additional observations from a re-analysis of the deposited data

How the results depend on the processing

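Across the alternatives for scaling, filter, pseudocount, tool and samples, 0 members passed the threshold as higher, and 0 as lower except for 3 in DESeq2. The members' median relative to all genes ranged from 0.32 (without IQ3pos_1910A) to 0.52 (deposited CPM). Members above in both IQ3pos libraries numbered 52 with deposited CPM and 20 without the 20 most abundant genes, and members below numbered 2 and 11. Leaving out a library, so that fewer have to separate, gave from 34 to 40 of 61 members above (55.7% to 65.6%), where 34.0% to 40.0% of all genes were. From 9 to 12 members were below (14.8% to 19.7%), where 32.7% to 38.7% of all genes were. There were 12 below without IQ3pos_1910A (19.7% of members, 38.7% of genes) and 10 without IQ3neg_1910B (16.4% and 33.6%). The lone library of a group was then assumed to vary like the other group. With the library number in the titles as a replicate block, 0 members passed and the median was 0.43, while over all genes 246 (1.89%) passed as higher and 157 (1.21%) as lower, against 6 and 24 without the block. Deviations of same-numbered libraries correlated at 0.14 over genes, and the labels name no shared mice, so the numbers were not taken to pair the samples.

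Some members changed side of the all-gene median, and the cause was not tested. Relative to all genes, Eef2 was −0.0157 without the 20 most abundant genes, −0.10 among genes averaging 5 CPM or more, −0.0013 with a pseudocount of 5, −0.0503 in edgeR and −0.0804 in DESeq2. Eif4g2 was −0.0038 without the 20 most abundant genes, −0.0889 at 5 CPM, −0.0306 in edgeR and −0.0553 in DESeq2. Eif4g1 was −0.0178 at 5 CPM, −0.0305 in edgeR and −0.0411 in DESeq2, and Eif4b −0.0113 at 5 CPM. Leaving out each library in turn gave −0.15 to 0.0615 for Eef2, −0.0282 to 0.79 for Eif3f, −0.0243 to 0.11 for Eif4b, −0.14 to 0.47 for Eif4e, −0.0175 to 0.72 for Eif4ebp2, −1.11 to 0.36 for Eif4enif1, −0.22 to 0.34 for Eif4g1, −0.14 to 0.12 for Eif4g2, −0.49 to 1.20 for Eif5a and −0.0558 to 0.56 for Eif5al3-ps. Depth limits the values of the members with a few reads in IQ3pos (Eif4e3, Eif5a2 and Eef1akmt3).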
